A study of Rattus norvegicus with 8 samples.

Results

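Axon guidance ligands and receptors were examined in rat hippocampal neuronal cultures treated with an NMDA receptor modulator. Members were the rows of the authors' deposited comparison table whose gene symbol belongs to the class 3 to 7 semaphorins, the plexins, neuropilins 1 and 2, the ephrins, the Eph receptors, the Slits, the Robos, the netrins, the netrin-Gs, the Unc5 receptors or Dcc. The symbol rule matched 68 of 13739 identifiers in that table, each found among the 32623 genes of the count tables. One of the 68, Unc50, shares only the first letters of its name with the Unc5 receptors and is not a guidance gene, so 67 guidance genes remained, 36 ligands and 31 receptors. Epha1, Epha6, Robo4 and Sema3g of the same families were not analysed here.

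Polyadenylated RNA was sequenced from wild type rat cultures (strain SD) on day 18 in vitro. The 4 vehicle libraries came from cultures that received vehicle and the 4 PAM libraries from cultures that received an NMDA receptor positive allosteric modulator (PAM), which strengthens the opening of this glutamate-gated channel without opening it by itself. Which compound was used, at what dose and for how long is not given in the sources used here. The comparison asks which transcripts differed after this potentiation, and nothing in the labels says that replicates are separate cultures, so the spread behind each p-value may be a technical one.

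Guidance ligands tell growing axons and dendrites where to turn, and many of the same genes are used later to shape dendritic spines and synapses. Semaphorins bind plexins, and the secreted class 3 semaphorins mostly need a neuropilin as co-receptor. Ephrins are tethered to the membrane, the A ephrins by a lipid anchor and the B ephrins by a transmembrane segment, and they bind Eph receptor tyrosine kinases on the facing cell. Slits are secreted repellents read by Robo receptors, while netrins attract through Dcc and repel when an Unc5 receptor takes part. The netrin-Gs are lipid-anchored relatives of netrins that bind postsynaptic adhesion proteins instead.

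Log2 fold changes of guidance transcripts were negative in 39 and positive in 18 of the 57 tested, and 24 passed the test. Sema4a, Sema4d, Sema4f and Sema4g, Sema6b and Sema6c, Plxna1 and Plxna4, Nrp1, Efnb3 and Efna3, Slit1 and Slit3, and the netrin receptors Unc5a and Unc5b were among those that fell, whereas Sema3c, Sema6d, Plxnb2, Plxnb3 and Slit2 rose. Of the 67 guidance genes, 57 passed the filter on low counts and were tested. In total 19 fell and 5 rose (quasi-likelihood F test in edgeR, p under 0.05 after Benjamini-Hochberg adjustment over all 11740 tested genes). The 19 that fell were 33.3% of the tested members, against a background of 9.89% of all tested genes, and the 5 that rose were 8.77%, near the background of 9.00%. In both directions together 24 members were called (42.1%), against 18.9% of all tested genes. The median log2 fold change was -0.36 over the 57 tested members and 0.02 over all tested genes. Called changes of more than 2-fold were seen in 5 members (8.77%, background 5.31%): Plxna4, Sema4a, Epha10, Unc5a and Plxnb3. The ranges of the vehicle and PAM libraries did not overlap for 25 of the 57 (43.9%, background 22.3%), 20 of them lower and 5 higher. The tested members and all tested genes had similar median levels (28.7 and 28.1 CPM, counts scaled to a common library size). The plot of fold changes by family shows every tested member.

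**Figure D1:**
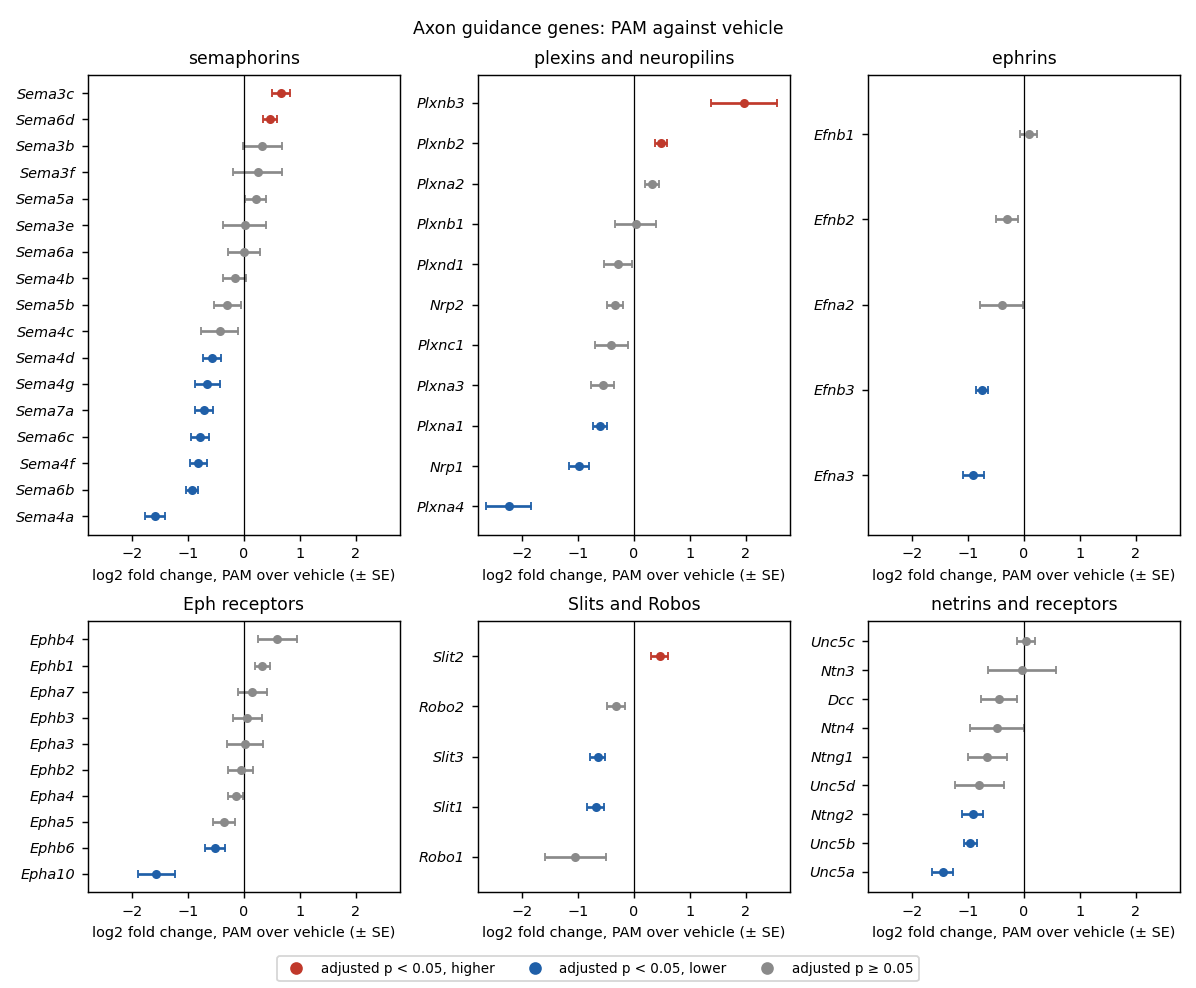
Log2 fold change of PAM over vehicle (x axis, points, with standard error as bars) for the 57 tested guidance genes, in 6 panels by family and sorted by value. Blue points (19) fell and red points (5) rose at an adjusted p under 0.05, and grey points (33) did not pass.

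Cell type markers also differed between the groups, and since RNA came from whole cultures, fewer cells of a type and less RNA per cell cannot be told apart. Of all tested genes 9.89% were lower and 9.00% higher, which is the background for the marker counts. Pan-neuronal markers (7 of 8 matched) were abundant, as the neuronal label asks, at a summed level of 3685 to 4150 CPM in vehicle and 2865 to 3521 CPM in PAM libraries, with 3 of 7 lower and 0 higher. Excitatory neuron markers were lower in 5 of 7 tested (0 higher; summed level 1337 to 1597 CPM against 833 to 972 CPM), and inhibitory neuron markers in 3 of 9 with 1 higher (1596 to 1784 and 1111 to 1672 CPM). Glial markers were abundant in both groups. Astrocyte markers were higher in 5 of 9 (0 lower; 6283 to 6600 and 9185 to 11169 CPM) and oligodendrocyte lineage markers in 5 of 10 with 1 lower (958 to 1071 and 1350.2 to 1759 CPM). Ependymal and choroid plexus markers were higher in 7 of 8 (0 lower; 62.8 to 86.6 and 222 to 331 CPM), and markers of dividing cells in 7 of 7 (75.0 to 115 and 147 to 190.0 CPM). Fibroblast and meningeal markers were higher in 2 of 5 (0 lower; 98.5 to 152 and 129 to 243 CPM). Microglial markers (5 of 10 matched, 0 of 3 tested called) summed to 23.7 to 65.1 and 15.1 to 25.8 CPM, and endothelial and mural markers (3 of 10 matched, 0 of 1 tested called) to 4.68 to 15.9 and 7.04 to 19.6 CPM. No matched marker of these lists was at 0 in all libraries, but markers were matched only through the authors' comparison table. A silent gene absent from that table could not appear at 0, so this says nothing of the unmatched markers. The part of these shifts in the guidance results was not tested.

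Libraries held 2960406 to 4389430 counts. With scaled library sizes 3 counts, the limit that a count of 0 allows, correspond to 0.640 to 1.08 CPM (counting error only). In PAM 3 and PAM 4 counts fell with exonic length (slopes of -0.0853 and -0.132 log2 units per doubling, against 0.00524 to 0.0627 in the other 6 libraries). The tested members were longer than all tested genes (median exonic length 4537 against 2457 bases). With each library's length trend removed, the members' median was -0.28 and 17 fell and 7 rose. These were 29.8% and 12.3% of the tested members, against 9.73% and 8.76% of all tested genes in that fit. Without both PAM 3 and PAM 4 the median was -0.28 as well, and 19 fell and 7 rose. Those that fell were 32.2% of the tested members, against 12.5% of all tested genes in that fit. Those that rose were 11.9%, near the background of 11.2%.

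Start-site sequences of the members were compared as a feature that the symbol rule did not use. RefSeq promoter windows on GRCr8, 250 bases before to 50 bases after a gene's start, were matched for 52 of the 67 guidance genes. The windows were searched on both strands for 6 motifs. Sema4a and Sema6b were looked at first for the CRE core, TGACG, and had no match. The 4 windows shown, of Unc5a and Unc5b, which fell, and of Plxnb2 and Sema6d, which rose, were then picked after the search because each holds a GC box, so that they show this motif and say nothing of how common it is. Capitals mark the GC box (GGGCGG on either strand, where neighbouring matches may overlap). The windows are chr17:9675614-9675913, minus strand for Unc5a, chr20:29307221-29307520, minus strand for Unc5b, chr7:122137899-122138198, minus strand for Plxnb2 and chr3:132337106-132337405, plus strand for Sema6d, each written along the gene's own strand.
Unc5a: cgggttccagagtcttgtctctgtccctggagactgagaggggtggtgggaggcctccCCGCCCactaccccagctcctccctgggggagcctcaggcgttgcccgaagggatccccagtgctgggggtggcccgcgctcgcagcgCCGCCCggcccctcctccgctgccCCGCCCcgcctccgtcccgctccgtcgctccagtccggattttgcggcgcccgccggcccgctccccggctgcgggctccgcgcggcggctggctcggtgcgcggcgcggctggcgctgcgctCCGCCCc
Unc5b: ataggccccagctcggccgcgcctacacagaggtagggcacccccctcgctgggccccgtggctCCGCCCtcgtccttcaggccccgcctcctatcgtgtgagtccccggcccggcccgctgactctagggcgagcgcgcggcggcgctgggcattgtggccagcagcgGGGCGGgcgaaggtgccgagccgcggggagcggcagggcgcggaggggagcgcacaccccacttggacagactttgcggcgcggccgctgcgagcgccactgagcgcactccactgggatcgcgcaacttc
Plxnb2: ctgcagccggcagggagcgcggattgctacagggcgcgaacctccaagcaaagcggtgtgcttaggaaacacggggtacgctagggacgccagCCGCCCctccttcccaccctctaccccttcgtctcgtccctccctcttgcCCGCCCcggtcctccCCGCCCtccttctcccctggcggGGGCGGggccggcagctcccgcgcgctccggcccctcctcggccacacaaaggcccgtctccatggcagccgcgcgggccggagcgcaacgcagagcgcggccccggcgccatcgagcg
Sema6d: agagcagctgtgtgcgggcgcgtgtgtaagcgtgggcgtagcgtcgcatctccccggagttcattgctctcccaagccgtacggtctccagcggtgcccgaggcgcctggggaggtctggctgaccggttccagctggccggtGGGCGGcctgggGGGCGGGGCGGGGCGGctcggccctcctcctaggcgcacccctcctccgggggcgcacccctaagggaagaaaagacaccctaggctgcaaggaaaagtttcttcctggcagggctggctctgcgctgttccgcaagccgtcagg

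These windows hold 4 matches in Unc5a, 2 in Unc5b, 4 in Plxnb2 and 4 in Sema6d, at a GC content of 77.7%, 74.3%, 73.7% and 69.0%. A GC box was present in 27 of 52 guidance promoters (51.9%), in 6 of 13 from members that fell and in 2 of 4 from members that rose. The share was 34.9% of all 27457 promoters of that length and 61.5% of the 11048 from genes in the deposited comparison. The full cAMP response element (CRE, TGACGTCA) was found in 1 of 52, the window of Epha2 (1.92% of members and 1.91% of all promoters), and its core TGACG, which the full element contains, in 9 of 52 (17.3% and 22.0%). The AP-1 site (TGANTCA) was found in 1 of 52, that of Epha10 (1.92% and 7.33%), the E-box (CACGTG) in 5 of 52 (9.62% and 6.65%), and the MEF2 core in 0 of 52 (0% and 3.83%). Among genes in the deposited comparison these shares were 3.16% for the CRE, 31.1% for its core, 4.87% for the AP-1 site, 9.30% for the E-box and 2.89% for the MEF2 core. A match of letters is a description of these windows only.

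Semaphorins were the largest family, with 19 members, 17 of them tested, 7 that fell and 2 that rose. Those that fell were 41.2% of the tested semaphorins and those that rose 11.8%, against 9.89% and 9.00% of all tested genes. All 6 class 4 semaphorins, transmembrane ligands that bind mainly B and D plexins, had negative log2 fold changes. Of these 4 passed the test (66.7%, against 18.9% of all tested genes). Sema4a (ENSRNOG00000019737, chromosome 2, 187799568 to 187822997, minus strand; Rnor_6.0, as for all gene positions here) had 41.8, 45.97, 46.02 and 48.9 CPM in vehicle 1 to 4 and 15.7, 12.8, 18.9 and 13.3 CPM in PAM 1 to 4. The groups lay far apart, with a log2 fold change of -1.59 ± 0.18, adjusted p = 1.08e-05. Sema4f, a class 4 member found at glutamatergic synapses, had 76.2, 56.2, 56.7 and 56.3 CPM in vehicle 1 to 4 and 32.04, 33.3, 35.6 and 38.6 CPM in PAM 1 to 4, with the group ranges apart and vehicle 1 above the other vehicle libraries. Its log2 fold change was -0.82 ± 0.15, adjusted p = 0.000884. Sema4d, the ligand of Plxnb1 that promotes synapse assembly, went from 39.8 ± 3.07 to 26.8 ± 1.40 CPM (-0.57 ± 0.16, adjusted p = 0.0153). Its call ended without vehicle 4 (-0.54, adjusted p = 0.056). Sema4g went from 36.2 ± 11.3 to 22.9 ± 4.58 CPM with overlapping groups (-0.66 ± 0.22, adjusted p = 0.0476), and its call ended in 6 of 8 fits without 1 library: vehicle 2, 3 or 4 or PAM 1, 2 or 4 (adjusted p 0.0131 to 0.207 over the 8). It ended also with upper-quartile scaling (0.0588) and with the length trend removed (0.0605). Sema4b and Sema4c were at -0.16 ± 0.21 and -0.43 ± 0.33 and did not pass.

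Class 6 semaphorins, transmembrane ligands of the A plexins, moved in both directions. Sema6b (ENSRNOG00000045998, chromosome 9, 10941613 to 10951252, plus strand) had the highest level per length of all semaphorins, 58.2 ± 3.79 CPM per kb in vehicle libraries. Its counts came to 208, 239, 233 and 216 CPM in vehicle 1 to 4 and 111, 104, 128 and 128 CPM in PAM 1 to 4. All PAM libraries were lower than all vehicle libraries, and the log2 fold change was -0.93 ± 0.11, adjusted p = 1.54e-05. Sema6c had 42.4, 46.2, 51.3 and 45.9 CPM in vehicle 1 to 4 and 23.7, 26.01, 31.5 and 26.7 CPM in PAM 1 to 4, again without overlap (-0.79 ± 0.16, adjusted p = 0.00177). Sema6d (ENSRNOG00000004812, chromosome 3, 116899878 to 116958050, plus strand) had 71.6, 87.3, 74.5 and 88.97 CPM in vehicle 1 to 4 and 117, 125, 102 and 99.9 CPM in PAM 1 to 4. Here every PAM library was higher (0.46 ± 0.12, adjusted p = 0.0122), and the call ended without vehicle 3 (0.42, adjusted p = 0.0503). Sema6a was at -0.01 ± 0.29 with PAM 4 the lowest library, and did not pass. Sema6b made up 29.8% of the summed semaphorin level per length in vehicle and 21.9% in PAM libraries, and Sema6d 6.67% and 12.8%.

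Sema7a, the lipid-anchored semaphorin that signals through Plxnc1 and integrins, was the second most abundant semaphorin per length (25.4 ± 3.63 CPM per kb in vehicle). It had 59.1, 58.6, 69.5 and 78.6 CPM in vehicle 1 to 4 and 44.9, 40.7, 46.5 and 28.1 CPM in PAM 1 to 4, all PAM libraries below all vehicle libraries (-0.72 ± 0.16, adjusted p = 0.00465). Among the secreted class 3 semaphorins, 4 of 6 were tested and all 4 had positive log2 fold changes. Only Sema3c passed, 25% of those tested, against 18.9% of all tested genes. Sema3c (ENSRNOG00000006526, chromosome 4, 14318274 to 14490446, minus strand) had 43.6, 31.1, 36.00 and 35.9 CPM in vehicle 1 to 4 and 57.4, 66.1, 46.00 and 63.5 CPM in PAM 1 to 4. The groups did not overlap and the level rose 1.59-fold (0.67 ± 0.16, adjusted p = 0.00612). Sema3a, the classical collapsing factor, and Sema3d were too low to be tested, with 1 to 10 and 2 to 16 counts per library. Sema3b, Sema3e and Sema3f were at 0.33 ± 0.34, 0.02 ± 0.38 and 0.24 ± 0.43. Sema3f shares 166 exon bases with Gnat1 on the same strand, whose 20 counts over all libraries compare with 129 for Sema3f, so its value is uncertain. Class 5 members Sema5a (0.21 ± 0.19) and Sema5b (-0.30 ± 0.24) did not pass, though Sema5a did with PAM 3 and PAM 4 both left out (0.46, adjusted p = 0.0415). Per-library values of Sema3c, Sema6d, Plxnb3, Robo1 and Robo2 are given, and settings of Plxna2, Plxna3 and Ephb1, although the rule for such values did not select them, a choice made after their values were seen.

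**Figure D2:**
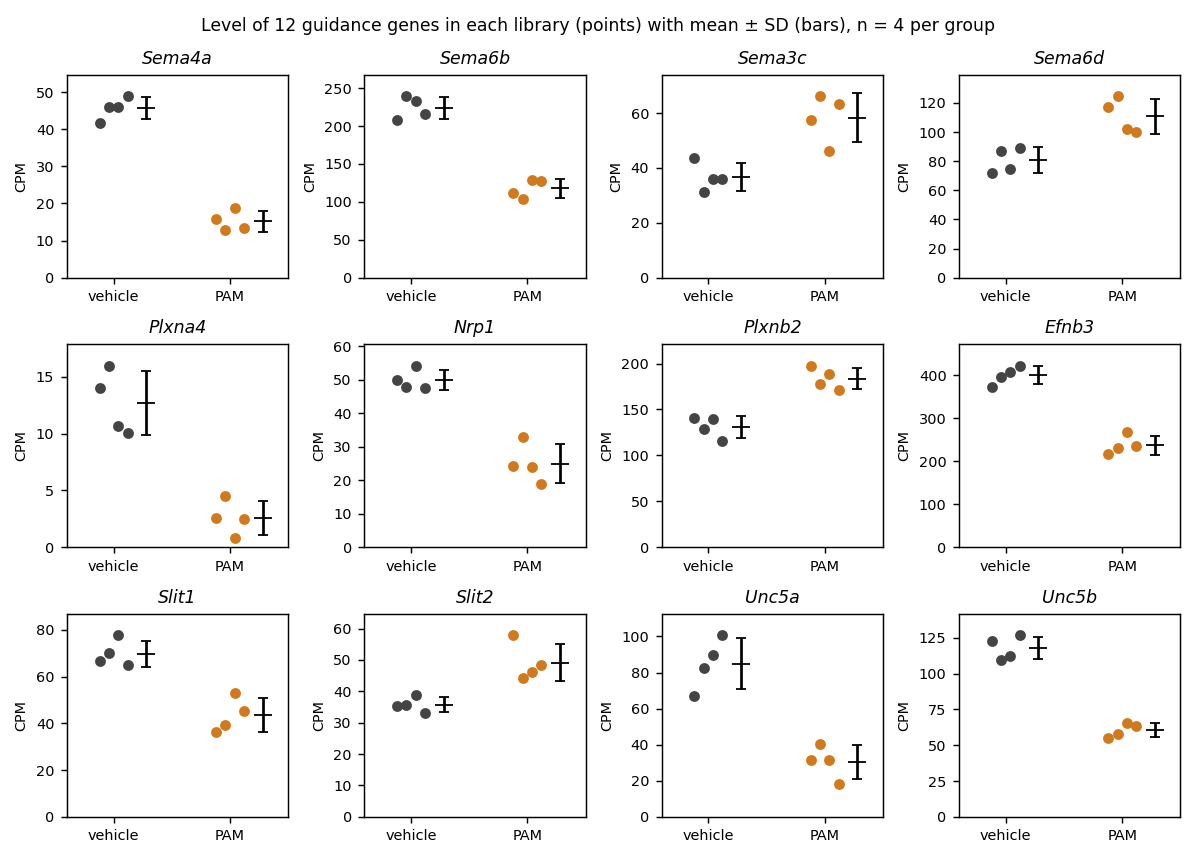
Level in CPM (y axes, linear and starting at 0) of 12 guidance genes in the 4 vehicle and 4 PAM libraries (points), with group mean ± SD (bars). The 12 were picked among called members after their values were seen. Groups do not overlap in any panel, against 22.3% of all tested genes with groups apart. Sema3c, Sema6d, Plxnb2 and Slit2 are higher with PAM and the other 8 are lower. The called members Plxnb3 and Sema4g, whose groups overlap, are not shown.

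Plexins and neuropilins, the receptors of the semaphorins, were all tested, and 3 of 11 fell and 2 rose. These were 27.3% and 18.2% of the family, against 9.89% and 9.00% of all tested genes. Plxna4 (ENSRNOG00000013072, chromosome 4, 59445767 to 59809321, minus strand), the co-receptor for Sema3a and a receptor for class 6 semaphorins, showed the largest decrease of the 57 tested members. It had 14.02, 15.96, 10.6 and 10.03 CPM in vehicle 1 to 4 and 2.54, 4.48, 0.821 and 2.52 CPM in PAM 1 to 4, resting on 31 to 58 raw counts in vehicle and 3 to 21 in PAM libraries. The lowest vehicle library was well above the highest PAM library, and the log2 fold change was -2.24 ± 0.40, adjusted p = 0.000683. Plxna1 had 107, 93.3, 89.5 and 82.5 CPM in vehicle 1 to 4 and 64.5, 61.6, 62.7 and 53.7 CPM in PAM 1 to 4, with no overlap (-0.62 ± 0.12, adjusted p = 0.00183). Plxna3, the partner of Nrp2, went from 34.3 ± 5.15 to 23.03 ± 5.85 CPM and did not pass (-0.56 ± 0.20, adjusted p = 0.0561), although it passed in DESeq2 (0.0458), with no low-count filter (0.0453), with the replicate block (0.0419) and without PAM 2 (0.0156). Plxna2 was at 84.6 ± 8.44 and 106 ± 11.3 CPM in vehicle and PAM libraries, in the opposite direction and without passing (0.32 ± 0.12, adjusted p = 0.07). It passed with the length trend removed (0.49, adjusted p = 0.00687), without PAM 4 (0.39, 0.0223) and with PAM 3 and PAM 4 both left out (0.44, 0.00715).

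B plexins, the receptors of class 4 semaphorins, were higher in 2 of 3, against 9.00% of all tested genes. Plxnb2 (ENSRNOG00000007133, chromosome 7, 130135464 to 130151880, minus strand), which also serves dividing neural progenitors, was the most abundant receptor of this family per length (20.04 ± 1.78 CPM per kb in vehicle). It had 141, 129, 139 and 116 CPM in vehicle 1 to 4 and 198, 178, 189 and 171 CPM in PAM 1 to 4. Every PAM library exceeded every vehicle library (0.49 ± 0.11, adjusted p = 0.00344), and Plxnb2 went from 26.8% to 39.9% of the family's summed level per length. Plxnb3, known from oligodendrocytes, had raw counts of 5, 14, 0 and 4 in vehicle libraries 1 to 4 and of 33, 41, 26 and 9 in the PAM libraries, so that vehicle 2 lay above PAM 4 in level. Its log2 fold change was 1.96 ± 0.59, adjusted p = 0.0258, and the call ended without vehicle 1, 3 or 4 or PAM 1, 2 or 3 (adjusted p 0.00692 to 0.0873 over 8 fits). In the same libraries the oligodendrocyte lineage list was mixed. Of 10 tested markers 5 rose, against 9.00% of all tested genes, among them Mbp of mature cells (2 ± 0.22 on the log2 scale). The precursor marker Pdgfra fell (-0.55 ± 0.16, adjusted p = 0.024). Markers that did not pass included Olig2, Cspg4 and Mog, at 0.09 ± 0.12, -0.17 ± 0.15 and -0.16 ± 0.25. The list summed to 958 to 1071 CPM in vehicle and 1350.2 to 1759 CPM in PAM libraries, and its part in the Plxnb3 value was not tested. Plxnb1 was at 0.04 ± 0.37 with PAM 4 at 3.61 CPM and the other 3 PAM libraries at 23.3 to 27.5 CPM.

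Nrp1 (ENSRNOG00000010744, chromosome 19, 61332351 to 61485858, plus strand), the co-receptor for Sema3a, had 50, 47.9, 54.2 and 47.6 CPM in vehicle 1 to 4 and 24.2, 32.8, 24.1 and 18.7 CPM in PAM 1 to 4. The groups stood apart, and the level was 1.98-fold lower with PAM (-0.98 ± 0.17, adjusted p = 0.000599). Nrp2, the co-receptor for Sema3f, had 80.8, 83.95, 87.97 and 65.7 CPM in vehicle 1 to 4 and 66.6, 78.04, 54.8 and 50.5 CPM in PAM 1 to 4. These groups overlapped and the difference did not pass (-0.34 ± 0.15, adjusted p = 0.119), though it did without PAM 2 (-0.47, adjusted p = 0.0301). Plxnc1 and Plxnd1 were at -0.41 ± 0.30 and -0.29 ± 0.25.

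Ephrins were dominated by Efnb3 (ENSRNOG00000010320, chromosome 10, 56161432 to 56167426, minus strand), a B ephrin that acts on the postsynaptic side of excitatory synapses. It had the highest level of all guidance genes in CPM and per length (127 ± 6.68 CPM per kb in vehicle), 64.6% of the summed ephrin level per length in vehicle and 60.6% in PAM libraries. It had 373, 396, 409 and 422 CPM in vehicle 1 to 4 and 216, 230.1, 268 and 236 CPM in PAM 1 to 4. No PAM library reached the lowest vehicle library, and the log2 fold change was -0.75 ± 0.10, adjusted p = 5.4e-05. Efna3 (ENSRNOG00000057322, chromosome 2, 188637852 to 188645196, minus strand), a ligand of the EphA receptors that astrocytes display toward spines, had 26.8, 28.9, 26.6 and 31.1 CPM in vehicle 1 to 4 and 15.4, 14.1, 17.2 and 13.7 CPM in PAM 1 to 4. It fell without overlap (-0.90 ± 0.19, adjusted p = 0.00252). Efnb1, Efnb2 and Efna2 did not pass, with log2 fold changes of 0.08 ± 0.15, -0.30 ± 0.20 and -0.40 ± 0.39. Efna1, Efna4 and Efna5 were not tested, at 1 to 20 counts per library.

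Among the Eph receptors 2 of 10 tested members fell and 0 rose, a share near the background of 18.9% of all tested genes called. Epha10 (ENSRNOG00000037340, chromosome 5, 142875773 to 142908395, plus strand), a receptor that lacks kinase activity, had 8.84, 12.7, 12.5 and 13.3 CPM in vehicle 1 to 4 and 3.46, 5.33, 3.29 and 3.61 CPM in PAM 1 to 4, resting on 29 to 46 raw counts in vehicle and 10 to 25 in PAM libraries. The ranges did not overlap and the level was 2.97-fold lower (-1.57 ± 0.33, adjusted p = 0.00233). Ephb6, which also lacks kinase activity, had 41.2, 45.97, 62.6 and 48.5 CPM in vehicle 1 to 4 and 28.3, 30.5, 39.7 and 40.4 CPM in PAM 1 to 4. Its groups lay close to each other (-0.52 ± 0.17, adjusted p = 0.0432), and the call ended without vehicle 2, 3 or 4 or PAM 1 or 2 (adjusted p 0.0177 to 0.176 over 8 fits), with upper-quartile scaling (0.0502) and with the length trend removed (0.094). Epha4, the most abundant Eph receptor per length in vehicle libraries and a regulator of spine shape, had 85.97, 81.8, 73.3 and 81.9 CPM in vehicle 1 to 4 and 66.4, 88.1, 58.3 and 78.6 CPM in PAM 1 to 4. These values overlapped (-0.15 ± 0.14, adjusted p = 0.497). Ephb1 was at 50.3 ± 5.22 and 63.2 ± 4.63 CPM with every PAM library above every vehicle library, yet did not pass (0.33 ± 0.13, adjusted p = 0.0949). It passed with the length trend removed (0.39, adjusted p = 0.0486). The other 6 tested receptors, Epha3, Epha5, Epha7, Ephb2, Ephb3 and Ephb4, ranged from -0.36 to 0.60 and did not pass, and Epha2 and Epha8 were not tested. Epha2 had 1, 1, 1 and 11 raw counts in the vehicle libraries and 13, 12, 12 and 5 in the PAM libraries, and without vehicle 4 it passed the filter and the test (3.04 ± 0.84, adjusted p = 0.0241). Epha8 had 2 to 12 raw counts per library. Ephb2, which binds NMDA receptors at the synapse, was at -0.06 ± 0.23.

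All 3 Slits passed the test, with 2 lower and 1 higher, against 18.9% of all tested genes called. Slit1 (ENSRNOG00000026065, chromosome 1, 260843483 to 260992366, minus strand) had 66.8, 69.9, 77.6 and 65.03 CPM in vehicle 1 to 4 and 36.4, 39.4, 53.1 and 45.1 CPM in PAM 1 to 4. Slit3 (ENSRNOG00000007377, chromosome 10, 20320878 to 20518518, plus strand) had 58.2, 66.3, 74.2 and 64.7 CPM in vehicle 1 to 4 and 41.03, 36.9, 47.6 and 42.5 CPM in PAM 1 to 4. Both fell with no overlap, by 0.69 ± 0.15 (adjusted p = 0.00259) and 0.65 ± 0.14 (adjusted p = 0.00301) on the log2 scale. Slit2 (ENSRNOG00000003840, chromosome 14, 66831848 to 67170361, minus strand) had 35.4, 35.5, 38.8 and 33.0 CPM in vehicle 1 to 4 and 57.9, 44.4, 46.3 and 48.3 CPM in PAM 1 to 4. All PAM libraries were higher than all vehicle libraries (0.46 ± 0.15, adjusted p = 0.0373), but the call ended without any 1 of the vehicle libraries or without PAM 1 (adjusted p 0.03 to 0.134 over 8 fits), with the replicate block (0.46, adjusted p = 0.0621) and with no low-count filter (0.0625). The Robo receptors did not pass. Robo2 had 55.8, 41.8, 50.1 and 44.0 CPM in vehicle 1 to 4 and 36.4, 45.2, 35.05 and 36.1 CPM in PAM 1 to 4, with vehicle 2 and vehicle 4 below PAM 2 (-0.32 ± 0.16, adjusted p = 0.161). Robo1 had 24.1, 13.2, 14.4 and 14.9 CPM in vehicle 1 to 4 and 3.23, 17.1, 10.1 and 0.361 CPM in PAM 1 to 4, a wide spread in which PAM 4 held 1 count and PAM 2 held 80 (-1.05 ± 0.55, adjusted p = 0.202). Without PAM 2 Robo1 was at -1.81 (adjusted p = 0.0209). Robo3 was not tested, at 0 to 7 counts per library.

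Netrin receptors of the Unc5 type, which turn the response to netrin into repulsion and can signal cell death when no netrin is bound, included the strongest calls of this family. Unc5a (ENSRNOG00000059840, chromosome 17, 10153994 to 10208360, minus strand) had 66.8, 82.6, 89.5 and 101 CPM in vehicle 1 to 4 and 31.6, 40.3, 31.8 and 18.03 CPM in PAM 1 to 4. The lowest vehicle value was well above the highest PAM value, with a log2 fold change of -1.46 ± 0.19, adjusted p = 3.65e-05. Unc5b (ENSRNOG00000000567, chromosome 20, 30339673 to 30406295, minus strand) had 123, 109.8, 113 and 127 CPM in vehicle 1 to 4 and 55.3, 57.8, 65.7 and 63.5 CPM in PAM 1 to 4. It was 1.95-fold lower, again without overlap (-0.96 ± 0.12, adjusted p = 1.73e-05). Unc5c was at 36.2 ± 4.46 and 37.2 ± 3.74 CPM and did not pass (0.04 ± 0.16, adjusted p = 0.888), and Unc5d was at -0.80 ± 0.44 with PAM libraries all below vehicle libraries, without passing. Dcc, the attractive netrin receptor, was at 10.3 ± 0.824 and 7.49 ± 2.83 CPM (-0.44 ± 0.32, adjusted p = 0.369).

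Netrin ligands were scarce. Ntn1, the founding netrin, had 3 to 10 counts per library and was not tested, nor was Ntn5, and Ntn3 and Ntn4 did not pass (-0.04 ± 0.61 and -0.49 ± 0.49). Ntng2, the netrin-G that binds Lrrc4 at excitatory synapses, had 42.1, 34.7, 40.4 and 48.2 CPM in vehicle 1 to 4 and 23.5, 26.9, 18.9 and 17.3 CPM in PAM 1 to 4. Its groups did not overlap (-0.92 ± 0.18, adjusted p = 0.00172). Ntng1 was at -0.66 ± 0.35 and did not pass. Summed over the family, the level was 297 to 358 CPM in vehicle and 154 to 189 CPM in PAM libraries. For plexins and neuropilins the same sum was 493 to 557 and 429 to 566 CPM, with overlapping groups.

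The balance between relatives was described by ratios of CPM per kb within each library, which do not depend on library scaling. The pairs were chosen after the fold changes were seen, and no test was made of them. Slit1 over Slit2 was 2.92 to 3.10 in vehicle libraries and 0.975 to 1.78 in PAM libraries, and Slit3 over Slit2 was 2.19 to 2.61 in vehicle libraries and 0.944 to 1.37 in PAM libraries. Sema6b over Sema6d was 3.90 to 5.02 in vehicle libraries and 1.34 to 2.06 in PAM libraries. All of these pairs shifted toward the member that rose, which follows from the fold changes given above. The calls of Slit2 and Sema6d did not hold in all alternative settings. Plxna1 over Plxnb2 was 0.474 to 0.562 in vehicle libraries and 0.232 to 0.256 in PAM libraries. Unc5a over Unc5c was 6.78 to 9.04 in vehicle libraries and 1.82 to 3.68 in PAM libraries, and Unc5b over Unc5c was 5.02 to 5.97 in vehicle libraries and 2.53 to 3.08 in PAM libraries. Ratios to an uncalled relative therefore differed too, as did Efnb3 over Efnb1 (9.90 to 11.5 in vehicle libraries and 5.42 to 6.31 in PAM libraries) and Nrp1 over Nrp2 (0.650 to 0.826 in vehicle libraries and 0.414 to 0.502 in PAM libraries). Plxna1 exceeded Plxna2 per length in all vehicle libraries and was below it in all PAM libraries (1.10 to 1.83 in vehicle libraries and 0.655 to 0.745 in PAM libraries).

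**Figure D3:**
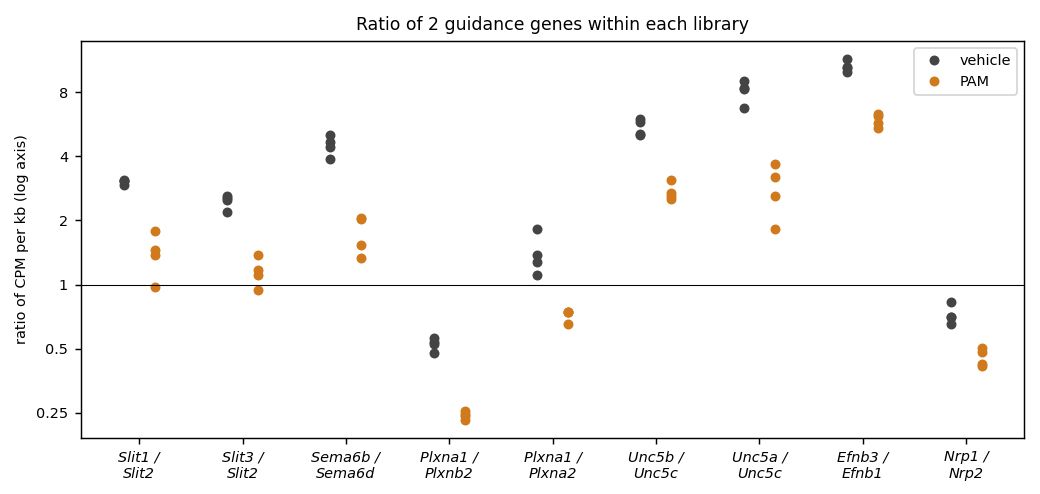
Ratio of CPM per kb (y axis, log scale) between 2 guidance genes in each of the 4 vehicle (grey) and 4 PAM (orange) libraries, for 9 pairs on the x axis. The pairs were chosen after the fold changes were seen. The vehicle and PAM points do not overlap for any pair shown, for example 2.92 to 3.10 against 0.975 to 1.78 for Slit1 over Slit2.

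Other genes of the guidance pathways were taken from 3 lists of adaptors, kinases and cytoskeletal regulators. Of 32 tested genes of the semaphorin list, 11 fell and 2 rose (40.6% called, against 18.9% of all tested genes), with a median of -0.28. Limk1, the kinase that inactivates cofilin, went from 196 ± 2.67 to 109 ± 9.83 CPM (-0.84 ± 0.10, adjusted p = 2.15e-05), and Mical2, an actin-oxidizing enzyme, from 287 ± 29.6 to 164 ± 6.25 CPM (-0.81 ± 0.11, adjusted p = 3.51e-05). Crmp1, a collapsin response mediator, went from 548 ± 15.5 to 352 ± 9.10 CPM (-0.64 ± 0.09, adjusted p = 8.98e-05), and the adhesion molecule L1cam from 138 ± 7.83 to 79.4 ± 8.82 CPM (-0.79 ± 0.11, adjusted p = 9.04e-05). Of 21 tested genes of the ephrin list 3 fell and 1 rose (4 of 21 called, against 18.9% of all tested genes), with a median of -0.19. Chn1, a Rac GTPase-activating protein downstream of Epha4, fell by 0.76 ± 0.11 (adjusted p = 9.18e-05), and the exchange factor Kalrn by 1.05 ± 0.20 (adjusted p = 0.00118) on the log2 scale. The adaptor Nck2 was at -0.65 ± 0.17, adjusted p = 0.0125, a call that ended without vehicle 2 (-0.60, adjusted p = 0.054). Sdcbp, the syntenin scaffold that binds B ephrins, rose from 288 ± 12.6 to 391 ± 27.4 CPM (0.44 ± 0.10, adjusted p = 0.00383).

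In the Slit and netrin list 6 of 25 tested genes fell and 1 rose, with a median of -0.33. The 7 called were 28% of the list, against 18.9% of all tested genes, and the 6 lower were 24%, against 9.89%. Nell2, a secreted ligand of Robo3, went from 637 ± 9.52 to 379.9 ± 9.07 CPM (-0.74 ± 0.09, adjusted p = 1.98e-05). Dscaml1, an adhesion molecule, and Trio, an exchange factor downstream of Dcc, had log2 fold changes of -0.80 ± 0.14, adjusted p = 0.000443, and -0.82 ± 0.14, adjusted p = 0.000487. The count of called genes on this list was 4 without vehicle 1, 3 without vehicle 2 and 4 without vehicle 4, against 7 with all libraries. In the same 3 fits 14.3%, 12.9% and 12.6% of all tested genes were called, and the list's share was 16%, 12% and 16%, near that background. All adjusted p-values of the guidance and list genes are from edgeR with Benjamini-Hochberg adjustment, unless DESeq2 is named.

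Of the 24 called members, 18 kept their direction and call in all 16 alternative settings, and the 6 that lost it in at least 1 were Ephb6, Plxnb3, Sema4d, Sema4g, Sema6d and Slit2. The count of members that rose was 3 without vehicle 1, 2 without vehicle 3 and 3 without PAM 1, against 5 with all libraries. These were 5.08%, 3.39% and 5.26% of the members tested in those fits, in which 6.81%, 6.40% and 6.92% of all tested genes rose. The count that fell stayed between 16 and 20 over all settings. These were 27.1% to 35.1% of the tested members, against 6.49% to 12.5% of all tested genes. The authors' deposited table lists an adjusted p under 0.05 for 25 of the 67 members, against 17.4% of all its identifiers, and concerns the same 8 libraries, so it is no independent support. These 25 are the 24 called here and Plxna3, at an adjusted p of 0.0465 in the authors' deposited table.

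**Figure D4:**
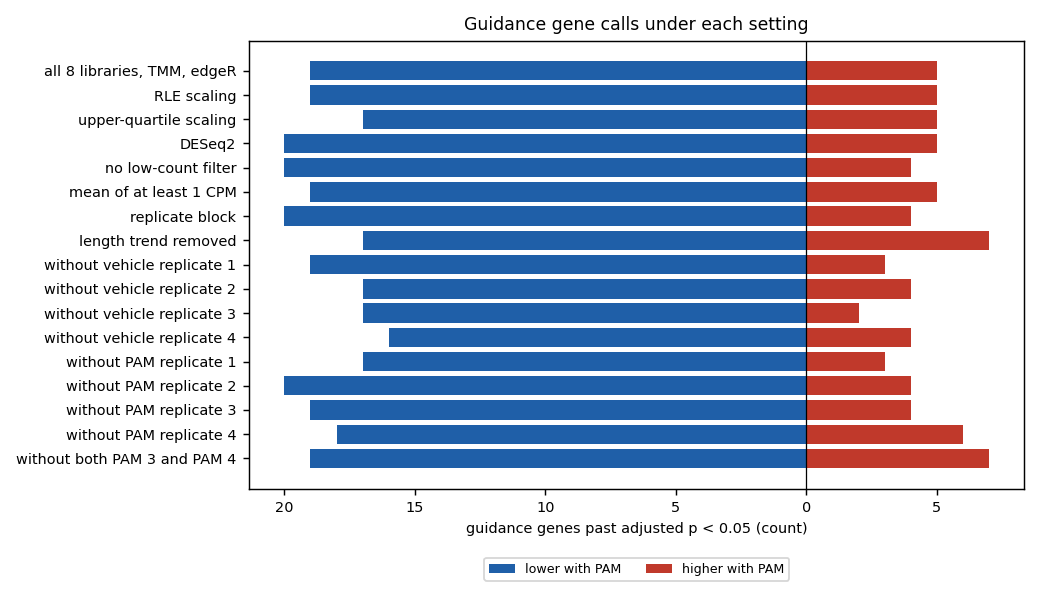
Number of guidance genes past an adjusted p under 0.05 (x axis, count) that were lower (blue, to the left) or higher (red, to the right) with PAM, under the main setting and each of 16 alternatives (y axis). Lower calls run from 16 to 20 and higher calls from 2 to 7.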

How the data were processed

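RNA from 8 libraries (4 vehicle, 4 PAM) was sequenced and the authors deposited whole-number gene counts per library, in featureCounts layout with exonic lengths (per the file headers). Per the submitters' processing notes the tools were STAR, featureCounts, DESeq2 and DESeq and the build Rnor_6.0. Their versions, strandedness and multi-mapping rules are not stated there. A comparison table was deposited as well, and per the file headers it holds the authors' group means as signal values, a log2 fold change, and p-values before and after adjustment. Gene symbols came from it.

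Counts were fitted across all genes in R 4.3.3 with edgeR 4.0.16 (limma 3.58.1): filterByExpr (11740 genes), TMM scaling, robust quasi-likelihood F test, group as the only term, Benjamini-Hochberg adjusted p under 0.05, no fold threshold. SE is the log2 fold change over the square root of F. CPM use TMM-scaled library sizes, and CPM per kb divide by exonic length. Errors of levels are SD, n = 4 per group. The fit was tested on simulated counts. A first simulation, drawn with gene-wise dispersions, gave more false calls than the threshold allows. The simulation, not the fit, was then changed to trended dispersions, and its false calls were still slightly above the threshold. In it 31.7% of 1.5-fold, 68.8% of 2-fold and 100% of 4-fold changes were recovered. A gene that did not pass may therefore still have changed by less than 2-fold or so. No 2 replicates agreed within counting error (chi-square per degree of freedom 2.85 to 15.9). Each library was counted as 1 sample, but this spread does not show that replicates are separate cultures. Members, gene lists and alternatives were chosen with earlier results of these data known. All called members are named. Per-library values are given for up to 4 called members of each family with the smallest p and the 2 with the highest CPM per kb, and up to 4 called genes are named from each pathway list, of which 1 is not reported here. Ratio pairs, plotted genes, promoters shown and the extra genes with per-library values were chosen after their values were seen. Of 176 list genes, 158 had an identifier. Alternatives were RLE and upper-quartile scaling, DESeq2 1.42.0, no low-count filter, a mean of at least 1 CPM, a replicate block, removal of the length trend (loess, span 0.5), each library left out, and PAM 3 and PAM 4 both left out. Exon overlaps with another gene that has counts concern Sema3f only.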

Additional observations from a re-analysis of the deposited data

Results flagged for a closer look

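In 5 of 62 groups of 4 libraries examined (31 named guidance genes in 2 groups), 1 library stood apart from the other 3 by Dixon's criterion, and chance flags about 1 in 20 groups. Vehicle 1 was the library apart in 3 of them. Sema4f was at 76.2 CPM there against 56.2 to 56.7 CPM in the other vehicle libraries, and Robo1 at 24.1 CPM against 13.2 to 14.9 CPM. Epha10 was at 8.84 CPM in vehicle 1, below the 12.5 to 13.3 CPM of the others. PAM 2 was the library apart in the other 2, with Epha10 at 5.33 CPM against 3.29 to 3.61 CPM and Robo2 at 45.2 CPM against 35.05 to 36.4 CPM. Sema4f and Epha10 kept their calls without the library named.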

How the results depend on the processing

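The counts of members that rose and fell, the members' median, the number of members with groups apart and the counts on the 3 pathway lists were recomputed under the 16 alternatives wherever a value could be had. Groups apart were not recomputed for DESeq2, the replicate block or the length correction. Of 109 such values 102 stayed close to the main one and 7 moved. Close was loosely set: 7 members that rose against 5, and 9 called semaphorin list genes against 13, still counted as close. A median counted as close within 0.178 of the main one, the SD between PAM libraries of that median. Without 1 library the members that rose numbered 2 to 6, those that fell 16 to 20, and the Slit and netrin list had 3 to 7 called genes. The ephrin list had 7 called genes without both PAM 3 and PAM 4, against 4 (33.3% of the list, and 23.7% of all tested genes in that fit). The members' median ran from -0.46 without PAM 2 to -0.28 without PAM 4, with the length trend removed and with PAM 3 and PAM 4 both left out. The causes were not tested. For 43 genes with values under the alternatives, 644 of 688 values kept their direction and side of the threshold, 34 lost the call, 10 gained one and 0 changed sign. Most of the 43 were picked because they were called in the main fit, and uncalled genes that stayed uncalled count as kept. The tally therefore does not describe guidance genes in general. With the replicate block 4 members rose and 20 fell (7.02% and 35.1% of those tested, against 8.13% and 9.45% of all tested genes). In that fit Slit2 lost and Plxna3 gained a call. Same-numbered libraries are not said to be paired. Their deviations from the group means correlated at -0.0595 to 0.0676, and those of differently numbered libraries at -0.148 to 0.116. With 4 libraries per group such values cannot decide whether same-numbered libraries share a culture or preparation. The 10 members that were not tested had 0 to 20 raw counts per library and Plxnb3 had 0 to 41. Epha2 was the only one of the 10 called in any setting.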
